A study of Drosophila melanogaster with 80 samples.

Results

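The subject of these results is a group of 6 lipase genes of Drosophila melanogaster: bmm (brummer), the triglyceride lipase of the lipid droplet, and 5 lipases of the digestive families, mag (magro), Lip3, CG8093, CG17192 and CG6283. They are 6 of the 11981 genes with a probe set of their own on the array. Each was found by its gene symbol on the array platform, keeping probe sets that carry 1 symbol. Each of the 6 had 1 such probe set. The genes were selected on their array values in the parental generation on the 2 diets, so those values are described here without a test. The first and second filial generations (F1 and F2) are other arrays, and comparisons within them were tested. Earlier results of these data were known when the genes were chosen, so these tests are not a fully independent check.

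The study asked how a high-sugar diet acts on the flies that eat it and whether the diet of an ancestor leaves a trace in descendants. RNA of whole adult Oregon R flies, unmated males and virgin females, was hybridised to 80 Affymetrix Drosophila Genome 2.0 arrays, 4 for each of 20 groups. Flies were kept 30 to a vial at 25 °C and ate either HSD, a diet with 1 M sucrose, or CD, the control diet with 0.15 M sucrose, for 14 days before 250 ng of RNA was labelled from the 3′ end. In the parental generation (F0) the 4 groups are HSD-fed and CD-fed males and HSD-fed and CD-fed females. In F1 and again in F2, each sex has 4 groups that combine the fly's own diet (HSD-fed or CD-fed) with its ancestry, which is the diet of the ancestral F0 males (HSD ancestry or CD ancestry). All groups are of the same strain and carry no transgene. The labels do not give the diet of the F1 parents of the F2 flies, and they leave unsaid if flies from different vials went onto the 4 arrays of a group. The p-values thus reflect the spread among 4 arrays, which may be technical.

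Brummer is the fly homologue of mammalian adipose triglyceride lipase and frees fatty acids from the triglyceride stored in fat body lipid droplets. Magro is a lipase made in the anterior midgut and secreted into the gut lumen, where it breaks down dietary triglyceride, and it also hydrolyses cholesterol esters. Lip3 and CG8093 belong to the same acid lipase family as Magro, and Lip3 is known as a transcript that rises in fasting flies. CG17192 and CG6283 belong to the family of pancreatic-type lipases and are named as lipases from their sequence. Fat from food has to be split by gut lipases before enterocytes absorb it, whereas Brummer acts inside cells on fat that is already stored.

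The deposited values are log2 signals, and "log2 signal" below means these. Arrays were normalized by the submitters in 10 sets: F0 males, F0 females, and each combination of generation, sex and own diet in F1 and F2. Array medians were 5.16 to 7.34 over all 80 arrays but differed by only 0.03 to 0.17 within a set. Ancestry was therefore compared inside a set, while the own diet of F1 and F2 flies was compared after quantile normalization over all 80 arrays, called "normalized log2 signal" below. In F1 and F2 each own diet is also a batch of its own in the labels, so own diet and batch cannot be told apart there. In these whole-fly RNA samples, fewer cells of a type and less RNA per cell cannot be told apart either. By a list of transcripts limited to 1 sex, 6 arrays, all of HSD ancestry, held more opposite-sex RNA than the lowest array of their set by over 0.5 on the log2 scale: F1 CD-fed male replicates 1 and 4, F1 HSD-fed female replicate 1 and F2 HSD-fed male replicates 1, 2 and 4. Arrays of both ancestries lay just under that limit. With CD ancestry these were F1 HSD-fed male replicate 4 (0.39) and F1 HSD-fed female replicate 1 (0.38). With HSD ancestry they were F1 HSD-fed male replicate 4 (0.34) and F2 HSD-fed male replicate 3 (0.38). Of 5 female-limited marker genes, 1 was called higher with HSD ancestry in CD-fed F1 males and 4 in HSD-fed F2 males; of 5 male-limited ones, 1 was called lower in CD-fed F2 males and none was called higher in females. None of the 6 lipases is sex-limited by that rule, and ancestry calls of the 6 lipases that use the 6 arrays over the limit are given with and without them. Leaving the arrays out kept all 16 own-diet calls and all 10 sex contrasts given below that use them, with shifts of at most 0.14 in each. Genes listed as markers of midgut and fat body gave signal in every array. The 4 midgut markers (GATAe, cad, esg and LManV) summed to at least 10.44 on the log2 scale. The 5 fat body markers (Lsp2, Fbp1, apolpp, CG4716 and Cyp4g1) summed to at least 14.87. Signals were summed before the log2 was taken, so the brightest genes weigh most. Whether each listed gene is limited to its tissue was not tested.

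In F0, 4 of the 6 lipases were lower and 2 were higher on HSD, in both sexes. For each of the 6 genes, in each sex, the 4 HSD arrays did not overlap the 4 CD arrays. Because these values chose the genes, nothing is read from that count. By limma, diet changed 30.7% of all genes tested in F0 males and 41.4% in F0 females at an adjusted p under 0.05, which is the threshold for every call below.

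**Figure D1:**
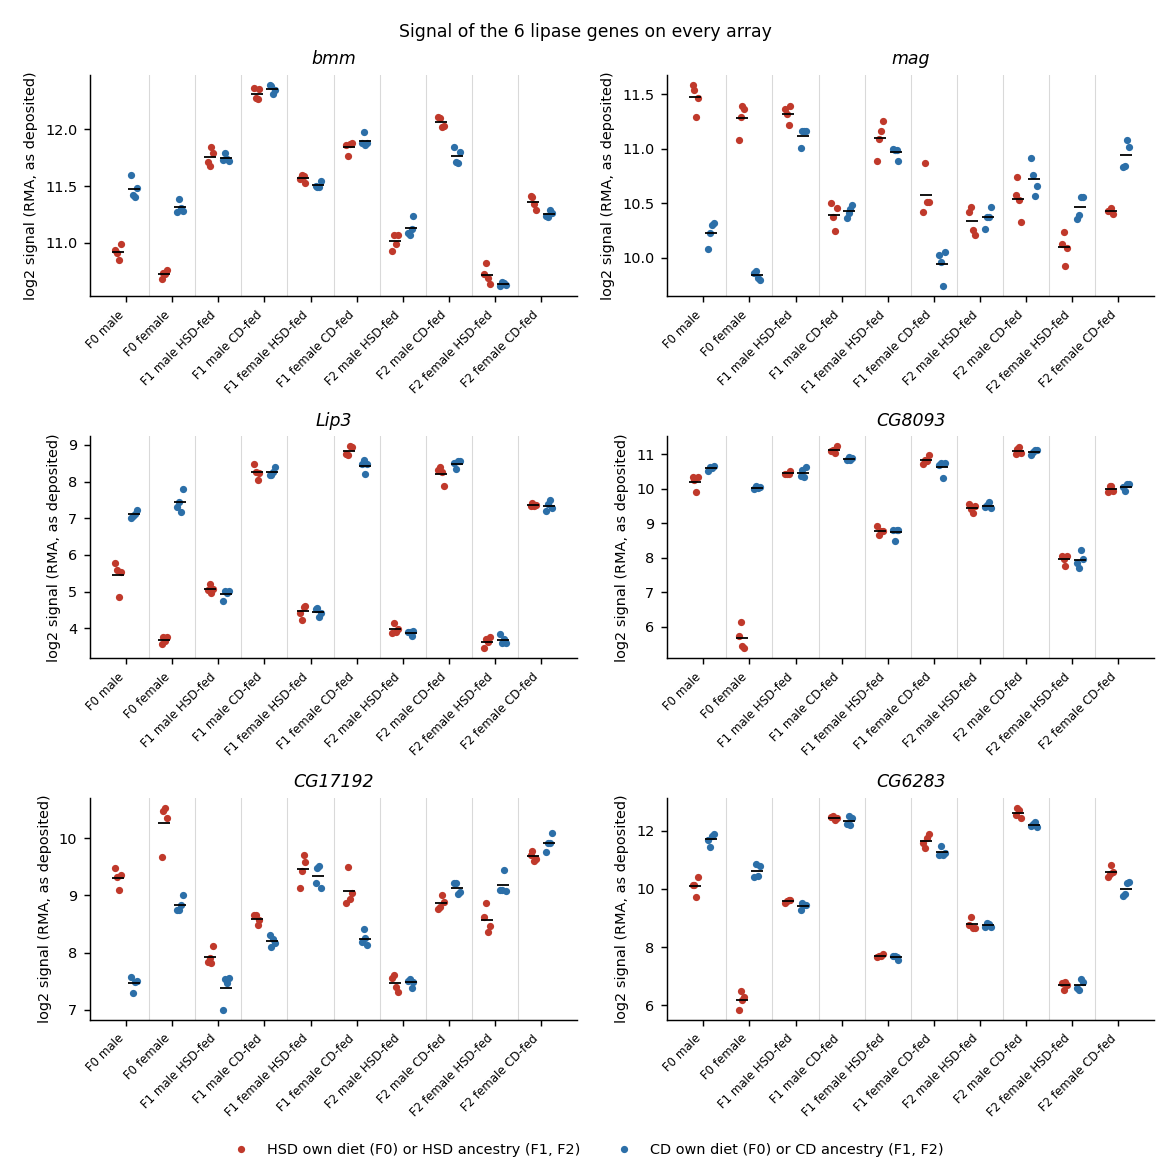
Log2 signal of the 6 lipase genes in each of the 80 arrays, as deposited, by set; red points are HSD (own diet in F0, ancestry in F1 and F2), blue points are CD, and the bar is the mean of 4 arrays. In F0 the red and blue points are apart for every gene, and Lip3 and CG6283 sit far lower in the HSD-fed than in the CD-fed sets of F1 and F2; levels in different sets were normalized separately.

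The bmm probe set read 10.94, 10.91, 10.85 and 10.99 log2 signal in HSD-fed F0 males, against 11.60, 11.42, 11.40 and 11.48 in CD-fed F0 males. HSD-fed F0 females had 10.68, 10.74, 10.73 and 10.76, against 11.27, 11.39, 11.31 and 11.28 in CD-fed F0 females. Every HSD array of either sex was below every CD array of that sex. The mean log2 signal was 10.92 ± 0.06 on HSD and 11.48 ± 0.09 on CD in males, and 10.73 ± 0.03 and 11.31 ± 0.05 in females (SD, n = 4 each). The lipase of the fat store was thus 1.47-fold lower in HSD-fed males and 1.5-fold lower in HSD-fed females, and the diet difference was close to equal in the sexes, the female difference minus the male one being -0.03 on the log2 scale. The 5 fat body markers summed to 15.68 to 15.74 in HSD-fed F0 males, against 15.82 to 15.85 in CD-fed F0 males, and to 15.13 to 15.21 against 15.45 to 15.56 in females, with 1 called higher and 1 lower in each sex. In females apolpp, 1 of the 5, was called higher by 0.13 although the sum was lower. The part of the fat body in the bmm difference was not tested.

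The F1 and F2 arrays showed the same direction for bmm. Over the 6 lipases, 22 of 24 own-diet differences in F1 and F2 passed, 20 of them lower on HSD. This share of 91.7% stands beside 81.3% over all genes tested (84.9% in F1 males, 84.6% in F1 females, 74.4% in F2 males and 81.5% in F2 females). Lower calls alone made up 42.1%, 40.8%, 38.6% and 39.9% of all genes in the same order. Lip3 in F2 is among the lower calls of the lipases, although it passed the dim filter there through the CD-fed groups. Calls alone therefore say little in these comparisons, and the sizes below are to be read against a median absolute difference over all genes of 0.36, 0.33, 0.28 and 0.33 in F1 males, F1 females, F2 males and F2 females. Of the 4 midgut markers, 1 was called higher and 3 lower on HSD in F1 males, 2 and 2 in F1 females, 1 and 3 in F2 males and 2 and 1 in F2 females. Of the 5 fat body markers the counts were 2 and 1, 1 and 2, 3 and 1, and 2 and 1 in the same order, and their part in the lipase differences was not tested.

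Normalized log2 signal of bmm was 11.23 to 11.44 on the 8 arrays of HSD-fed F1 males (median 11.31), against 12.14 to 12.33 (median 12.24) on the 8 arrays of CD-fed F1 males, each 8 being 4 of either ancestry. Among F1 females it was 11.05 to 11.16 (median 11.10) in HSD-fed flies, against 11.71 to 11.93 (median 11.85) in CD-fed flies. No HSD-fed F1 array reached a CD-fed one, and the difference was -0.91 in males (SE 0.03, limma adjusted p = 4.81e-14) and -0.73 in females (SE 0.03, adjusted p = 7.41e-13). F2 males had 11.22 to 11.61 (median 11.39) on HSD, against 11.59 to 11.95 (median 11.79) on CD, with a slight overlap on this scale and a difference of -0.39 (SE 0.06, adjusted p = 1.79e-05). F2 females had 10.70 to 10.98 (median 10.73) on HSD, against 11.29 to 11.51 (median 11.36) on CD, with no overlap and a difference of -0.60 (SE 0.03, adjusted p = 6.26e-11). As deposited, bmm differed by -0.58 in F1 males, -0.33 in F1 females and, with no overlap, -0.84 in F2 males, so the direction did not depend on the scaling but the size did. The drop of bmm on HSD was larger in F1 males than in F1 females, with a female minus male difference of 0.18 (SE 0.04, adjusted p = 0.000384). In F2 that contrast was -0.21 (SE 0.07, adjusted p = 0.00912), but it turned to 0.21 with the values as deposited, so its direction depends on the scaling.

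**Figure D2:**
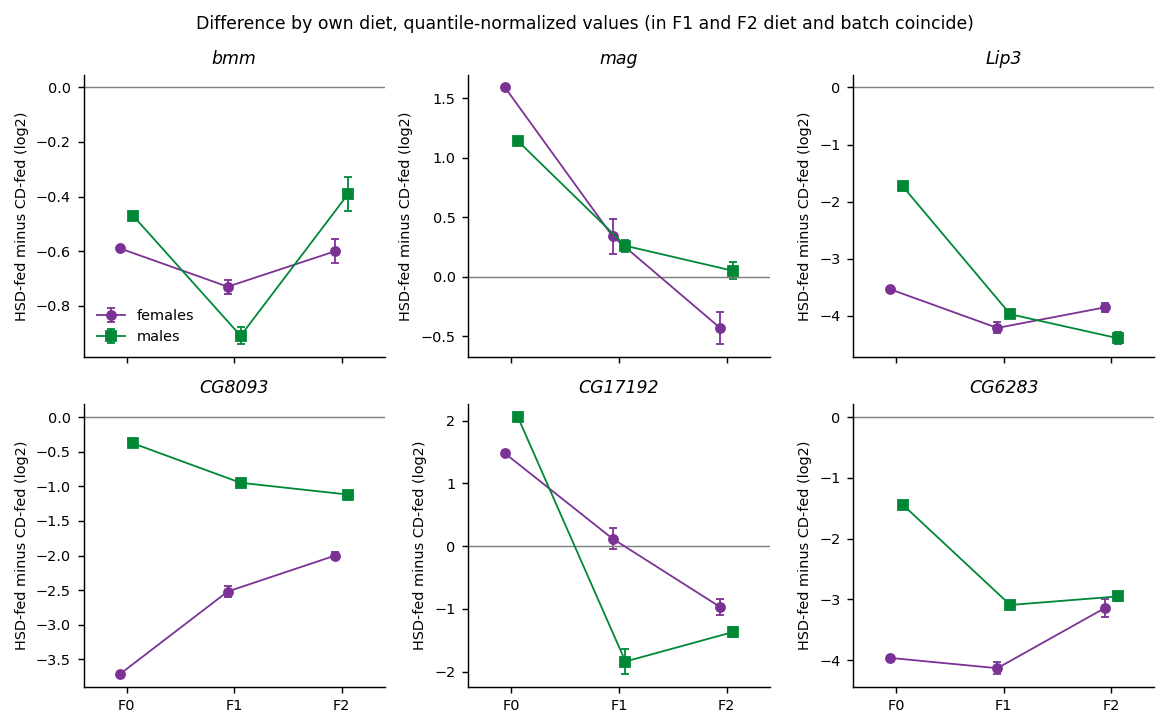
HSD minus CD difference in normalized log2 signal for each lipase gene in F0, F1 and F2; purple circles are females and green squares are males, and bars in F1 and F2 are the SE of a difference of 2 means of 8 arrays (F0, which chose the genes, is shown without bars). Lip3 and CG6283 lie far below 0 in F1 and F2, bmm lies below 0 in all 6 comparisons, and CG17192 is above 0 in F0 but below 0 in F1 males and in both sexes of F2.

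Ancestry gave fewer calls. Inside the 8 F1 and F2 sets, 46 of the 48 pairs of gene and set could be tested (Lip3 was too dim in HSD-fed F2 flies of both sexes), and 9 passed, 8 higher and 1 lower with HSD ancestry. This share of 19.6% stands beside 2.06% of all genes. All 9 lay in CD-fed sets, where 9 of 24 passed and 2.89% of all genes did. In the HSD-fed sets 0 of 22 passed by limma, 5 had an unadjusted p under 0.05, and 1.25% of all genes passed. Whether the ancestry change differs between HSD-fed and CD-fed flies was tested directly, and 1 of 24 such differences passed (4.17%, against 1.94% of all genes), that of bmm in F2 males; of all genes, 3.77% passed in F1 males, 2.86% in F1 females, 0.923% in F2 males and 0.169% in F2 females. The share of all genes with an ancestry call was 4.52%, 2.65%, 2.99% and 1.29% in CD-fed F1 males, F1 females, F2 males and F2 females, and 0%, 4.12%, 0.201% and 0.789% in the HSD-fed sets in the same order. Calls of genes higher with HSD ancestry made up 3.21%, 2.49%, 2.14% and 0.499% in the CD-fed sets. The 37 differences that did not pass ran from -0.60 to 0.53, with a lowest adjusted p of 0.0549 and 9 with an unadjusted p under 0.05.

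**Figure D3:**
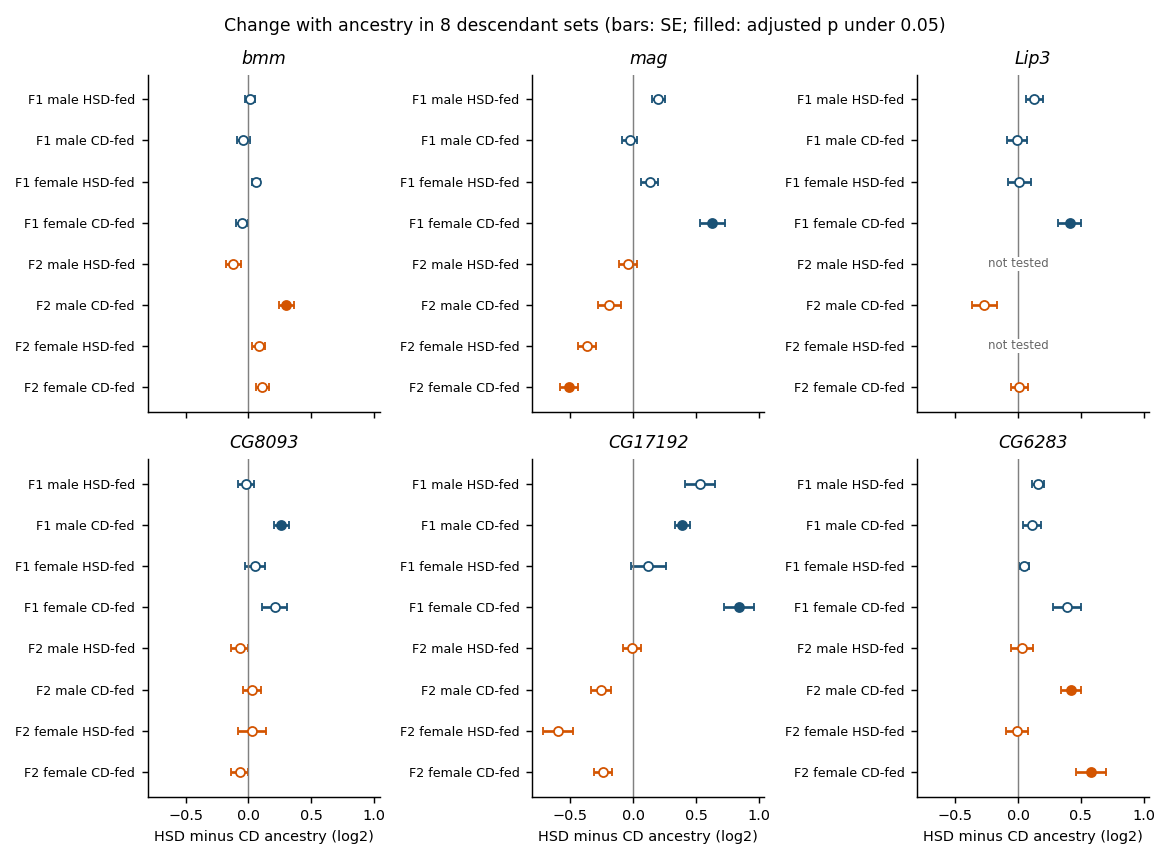
HSD ancestry minus CD ancestry in log2 signal for each lipase gene in the 8 sets of F1 (blue) and F2 (orange); bars are the SE of the limma fit on 4 against 4 arrays, and filled points passed at an adjusted p under 0.05. The 9 filled points are all in CD-fed sets; mag and CG17192 are higher in CD-fed F1 females, and mag is lower in CD-fed F2 females.

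For bmm, the CD-fed F2 males were the set with an ancestry call. Log2 signal was 12.11, 12.10, 12.02 and 12.03 with HSD ancestry, against 11.84, 11.71, 11.70 and 11.80 with CD ancestry. All 4 arrays of HSD ancestry were above all 4 of CD ancestry, and the difference was 0.30 (SE 0.06, adjusted p = 0.0341). The call was lost, with differences of 0.28 to 0.32, when HSD ancestry replicate 1, 2, 3 or 4 or CD ancestry replicate 3 was left out, and also after quantile normalization (0.21, adjusted p = 0.0858) and with a replicate block (adjusted p = 0.0552). HSD-fed F2 males had 10.93, 11.07, 10.99 and 11.07 with HSD ancestry, against 11.09, 11.07, 11.12 and 11.24 with CD ancestry, a difference of -0.12 that did not pass. The change with ancestry in HSD-fed minus that in CD-fed F2 males was -0.42 (SE 0.08, adjusted p = 0.0165; 0.923% of all genes passed). Without the arrays over the limit for opposite-sex RNA, replicate 3 (10.99) was the 1 array left of HSD-fed F2 males of HSD ancestry. By the same list, replicate 3 was itself 0.38 above the lowest array of its set, against at most 0.02 in the 4 arrays of CD ancestry. The contrast was -0.44 with these arrays left out, a value that rests on replicate 3 and is not free of opposite-sex RNA. After quantile normalization of all arrays the contrast was -0.34 with an adjusted p of 0.0919. Over the 8 sets the bmm ancestry difference ranged from -0.12 to 0.30. The 4 midgut markers summed to 11.56 to 11.80 with HSD ancestry, against 11.85 to 12.01 with CD ancestry in CD-fed F2 males, and the 5 fat body markers to 15.81 to 15.89 against 15.83 to 15.88. No midgut or fat body marker passed in that set, and the part of either tissue in the bmm difference was not tested.

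Magro was one of the 2 members that were higher on HSD in F0. Its log2 signal was 11.59, 11.54, 11.29 and 11.47 in HSD-fed F0 males, against 10.08, 10.23, 10.30 and 10.32 in CD-fed F0 males. HSD-fed F0 females had 11.08, 11.29, 11.39 and 11.37, against 9.86, 9.88, 9.82 and 9.80 in CD-fed F0 females. The HSD arrays lay wholly above the CD arrays in both sexes. Means were 11.47 ± 0.13 on HSD and 10.23 ± 0.11 on CD in males, and 11.28 ± 0.14 and 9.84 ± 0.04 in females (SD, n = 4 each), which is 2.36-fold and 2.72-fold higher on HSD. The midgut markers summed to 11.59 to 11.92 in HSD-fed F0 males, against 11.41 to 11.66 in CD-fed F0 males, and to 11.60 to 11.89 against 11.54 to 11.59 in females. One of the 4 midgut markers was called higher in each sex, and the part of the midgut in the mag difference was not tested.

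The own-diet difference of mag was smaller in F1 than in F0, and not of one direction in F2. In F0 the normalized difference was 1.14 in males and 1.59 in females. Since the F0 values chose the gene, a smaller difference in other arrays is not read as a result. HSD-fed F1 males had a normalized log2 signal of 10.61 to 10.99 (median 10.79), against 10.44 to 10.63 (median 10.57) in CD-fed F1 males, a difference of 0.26 (SE 0.05, adjusted p = 5.6e-05). HSD-fed F1 females had 10.34 to 10.80 (median 10.46), against 9.61 to 10.77 (median 10.17) in CD-fed F1 females, a difference of 0.34 (SE 0.09, adjusted p = 0.00335). Both F1 differences were called, yet both pairs of groups overlapped. In F2 males the 2 diets could not be separated, with 10.57 to 10.83 (median 10.72) on HSD, 10.39 to 10.95 (median 10.65) on CD and a difference of 0.05 (SE 0.06, adjusted p = 0.497). In F2 females mag was lower on HSD, at 9.90 to 10.63 (median 10.34), against 10.46 to 11.12 (median 10.70) on CD, a difference of -0.43 (SE 0.06, adjusted p = 2.04e-06). These values depend on the scaling: as deposited, where the median of all genes also shifted by 0.42 in F1 males, 0.34 in F1 females and -0.35 in F2 males, the mag differences were 0.81, 0.77 and -0.28. The F2 own-diet difference of females minus that of males was -0.48 (SE 0.09, adjusted p = 1.28e-05), and -0.12 with an adjusted p of 0.186 as deposited.

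Ancestry moved mag in opposite directions in CD-fed females of the 2 generations. In CD-fed F1 females the log2 signal was 10.42, 10.87, 10.51 and 10.51 with HSD ancestry, against 10.03, 9.96, 9.74 and 10.05 with CD ancestry. In CD-fed F2 females it was 10.43, 10.43, 10.46 and 10.40 with HSD ancestry, against 10.83, 10.84, 11.08 and 11.02 with CD ancestry. The groups did not overlap in either generation, the HSD ancestry arrays being the upper ones in F1 and the lower ones in F2. The difference was 0.63 in F1 (SE 0.10, adjusted p = 0.0139) and -0.51 in F2 (SE 0.07, adjusted p = 0.00492). Both calls held under all 16 alternative settings and left-out arrays that were run. The change from generation to generation, F2 minus F1, was -1.14 (SE 0.13, adjusted p = 0.000241). Such generation contrasts, added after the data had been seen, passed for 5 of 24 pairs of gene and set (20.8%, against 1.59% of all genes, 2.88% in CD-fed females and 0.127% in HSD-fed males).

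Averaged over both own diets, mag was higher with HSD ancestry in F1 females by 0.38 (SE 0.09, adjusted p = 0.0253) and lower in F2 females, with a difference of -0.44 (SE 0.05, adjusted p = 0.000209). The F1 call was lost without CD-fed CD ancestry replicate 1 (0.37, adjusted p = 0.0508), and was 0.43 (adjusted p = 0.0101) without the array that held opposite-sex RNA. These are 2 of 5 calls among 24 averaged ancestry differences (20.8%, against 3.7% of all genes). The same averages were called for 4.87% of all genes in F1 females and 8.63% in F2 females. Taken by own diet, the mag difference in F1 females was 0.63 in CD-fed flies but 0.13 in HSD-fed flies, where it was not called (adjusted p = 0.405). The change between these own diets did not pass (-0.50, adjusted p = 0.0643). In HSD-fed F2 females mag was 10.13, 10.24, 9.93 and 10.09 with HSD ancestry, against 10.36, 10.39, 10.56 and 10.56 with CD ancestry, and the difference of -0.37 had an adjusted p of 0.059. In HSD-fed females the change between generations was -0.50 (SE 0.11, adjusted p = 0.0422; 1.17% of all genes passed), but this call was lost in 15 of 24 alternatives, the quantile normalization and the replicate block among them; without the array that held opposite-sex RNA it was -0.57 (adjusted p = 0.0137). The midgut markers of CD-fed F1 females summed to 11.89 to 12.00 with HSD ancestry, against 11.82 to 11.87 with CD ancestry, with 1 of 4 called higher. In CD-fed F2 females they summed to 11.36 to 11.48, against 11.48 to 11.58, with 0 of 4 called, so that the summed level differed in the same direction as mag in both generations. The part of the midgut in these differences was not tested.

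Lip3 was lower on HSD in both sexes of all 3 generations. Its log2 signal was 5.79, 5.58, 4.86 and 5.54 in HSD-fed F0 males, against 7.02, 7.07, 7.13 and 7.23 in CD-fed F0 males. HSD-fed F0 females had 3.57, 3.75, 3.66 and 3.77, against 7.32, 7.44, 7.18 and 7.79 in CD-fed F0 females. The HSD arrays of both sexes lay far below the CD arrays. Means were 5.44 ± 0.40 on HSD and 7.11 ± 0.09 on CD in males (3.17-fold lower on HSD), and 3.69 ± 0.09 and 7.43 ± 0.26 in females (13.4-fold lower). The HSD-fed female mean was at the 22.7th percentile of all probe sets, below the 25th that was used as the limit for dim probe sets, so the fold change there is bounded by what a dim probe can show.

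In F1 and F2, Lip3 was close to or below that limit on HSD in every group. HSD-fed F1 males had a normalized log2 signal of 4.31 to 4.56 (median 4.46), against 8.25 to 8.67 (median 8.38) in CD-fed F1 males. HSD-fed F1 females had 4.12 to 4.53 (median 4.41), against 8.18 to 8.86 (median 8.58) in CD-fed F1 females. The diets were far apart in both sexes of F1, the differences being -3.97 in males (SE 0.05, adjusted p = 5.82e-20) and -4.21 in females (SE 0.08, adjusted p = 1.69e-16). HSD-fed F2 males had 3.90 to 4.33 (median 4.07), against 7.92 to 8.72 (median 8.54) in CD-fed F2 males, a difference of -4.39 (SE 0.10, adjusted p = 1.09e-16). HSD-fed F2 females had 3.36 to 4.14 (median 3.76), against 7.48 to 7.65 (median 7.63) in CD-fed F2 females, a difference of -3.85 (SE 0.08, adjusted p = 1.53e-15). With the HSD side at or near the dim limit, the size of these differences is bounded by what the probe set can show. In F2 the HSD-fed groups were at the 8.4th to 22.7th percentile as deposited, all below the limit. Lip3 thus entered the F2 tests through the CD-fed groups, where it was high, and its F2 calls are taken as a description. On the normalized scale the F0 difference had been -1.73 in males and -3.53 in females.

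For the same reason no order of the sexes is read for Lip3. The own-diet difference of females minus that of males was -0.24 in F1 (SE 0.10, adjusted p = 0.032) and 0.54 in F2 (SE 0.13, adjusted p = 0.000602). Of the 12 such sex contrasts over the 6 lipases, 10 passed (76.9% of all genes did in F1 and 66.9% in F2). The F1 value for Lip3 was lost with any of 6 arrays left out, at -0.18 to -0.22 (HSD-fed HSD ancestry female replicates 1 and 2, CD-fed HSD ancestry female replicates 3 and 4, HSD-fed CD ancestry female replicate 3 and CD-fed HSD ancestry male replicate 3), and was -0.92 with the values as deposited.

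Lip3 differed with ancestry in CD-fed F1 females. The HSD ancestry arrays had 8.75, 8.73, 8.96 and 8.95 log2 signal, against 8.48, 8.58, 8.20 and 8.48 with CD ancestry. The groups did not overlap, and HSD ancestry was higher by 0.41 (SE 0.09, adjusted p = 0.0395). This call was lost without HSD ancestry replicate 1, 3 or 4 or CD ancestry replicate 1, 3 or 4 (differences of 0.33 to 0.44), after quantile normalization (0.35, adjusted p = 0.0741) and with a replicate block (adjusted p = 0.0992). It was the 1 call among 6 sets tested for Lip3, where the differences ran from -0.27 to 0.41.

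CG8093, the third member of the acid lipase family, differed by sex on HSD in F0. It had 10.33, 10.27, 9.91 and 10.33 log2 signal in HSD-fed F0 males, against 10.53, 10.63, 10.61 and 10.67 in CD-fed F0 males. HSD-fed F0 females had 5.74, 6.15, 5.44 and 5.38, against 10.00, 10.08, 10.02 and 10.04 in CD-fed F0 females. The 2 diets were narrowly separated in males and widely separated in females. Means were 10.21 ± 0.20 on HSD and 10.61 ± 0.06 on CD in males (1.32-fold lower on HSD), and 5.68 ± 0.35 and 10.03 ± 0.04 in females (20.5-fold lower), and the female difference minus the male one was -3.96.

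The sex contrast for CG8093 was also present in the F1 and F2 arrays. HSD-fed F1 males had a normalized log2 signal of 10.03 to 10.28 (median 10.12), against 10.95 to 11.30 (median 11.08) in CD-fed F1 males, a difference of -0.95 (SE 0.05, adjusted p = 1.68e-12). HSD-fed F1 females had 7.93 to 8.30 (median 8.17), against 10.22 to 10.90 (median 10.68) in CD-fed F1 females, a difference of -2.52 (SE 0.07, adjusted p = 9.82e-15). The groups were apart in both sexes of F1, as they were in F2. HSD-fed F2 males had 9.78 to 10.07 (median 9.93), against 10.98 to 11.10 (median 11.07) in CD-fed F2 males, a difference of -1.12 (SE 0.04, adjusted p = 1.42e-13). HSD-fed F2 females had 7.86 to 8.22 (median 8.03), against 9.94 to 10.11 (median 10.07) in CD-fed F2 females, a difference of -2.0 (SE 0.05, adjusted p = 1e-14). The female difference minus the male one was -1.57 in F1 (SE 0.09, adjusted p = 2.85e-16) and -0.89 in F2 (SE 0.07, adjusted p = 7.56e-13), so CG8093 was lowered more in females each time. As deposited the F1 male difference was -0.53 and the F2 sex contrast -0.47 (adjusted p = 7.02e-06), with the same direction.

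With ancestry, CG8093 was called in CD-fed F1 males, where it had 11.09, 11.14, 11.03 and 11.23 log2 signal with HSD ancestry, against 10.83, 10.92, 10.84 and 10.89 with CD ancestry. All arrays of HSD ancestry were above those of CD ancestry, by 0.26 on average (SE 0.06, adjusted p = 0.0267). Leaving out replicates 1 and 4 of HSD ancestry, which held opposite-sex RNA, gave 0.22 with an adjusted p of 0.218. The call was also lost without HSD ancestry replicate 1 or 4 or CD ancestry replicate 1, 3 or 4 taken singly (0.22 to 0.27), and in 1 fit of all 80 arrays. Its differences over the 8 sets ran from -0.07 to 0.26.

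The remaining members, CG17192 and CG6283, sit on chromosome arm 3R in a run of 7 neighbouring lipase genes (CG6296, CG6295, CG17192, CG17191, CG6283, CG6277 and CG6271, by RefSeq's Release 6 annotation), of which 6 were measured and CG6277 is not analysed here. Lip3 is on 3R as well, bmm and mag are on 3L, and CG8093 is on 2R. Neighbouring genes of one family can be alike in sequence, and whether these probe sets also read each other's transcripts was not tested.

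In F0, these close neighbours differed in opposite directions. CG17192 had 9.47, 9.32, 9.09 and 9.36 log2 signal in HSD-fed F0 males, against 7.57, 7.30, 7.48 and 7.50 in CD-fed F0 males. HSD-fed F0 females had 9.67, 10.48, 10.52 and 10.35, against 8.74, 8.75, 8.84 and 9.01 in CD-fed F0 females. It was thus higher on HSD in both sexes, with means of 9.31 ± 0.16 on HSD and 7.46 ± 0.12 on CD in males (3.6-fold), and 10.25 ± 0.40 and 8.84 ± 0.13 in females (2.66-fold). CG6283 had 10.13, 10.15, 9.72 and 10.42 in HSD-fed F0 males, against 11.68, 11.45, 11.83 and 11.89 in CD-fed F0 males. HSD-fed F0 females had 5.84, 6.49, 6.18 and 6.28, against 10.42, 10.84, 10.45 and 10.77 in CD-fed F0 females. This gene was lower on HSD, with means of 10.11 ± 0.29 on HSD and 11.71 ± 0.19 on CD in males (3.05-fold lower), and 6.20 ± 0.27 and 10.62 ± 0.21 in females (21.4-fold lower; SD, n = 4 for each mean).

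CG17192 was not higher on HSD in F1 males or in either sex of F2. Its normalized log2 signal was 5.87 to 7.48 (median 6.77) in HSD-fed F1 males, against 8.24 to 8.83 (median 8.61) in CD-fed F1 males, a difference of -1.84 (SE 0.10, adjusted p = 7.6e-12). In F1 females the diets overlapped, with 8.46 to 9.01 (median 8.75) on HSD, 8.15 to 9.36 (median 8.59) on CD and a difference of 0.12 (SE 0.12, adjusted p = 0.374). As deposited the F1 differences were -0.74 in males and 0.73 in females, and the female one then passed. HSD-fed F2 males had 7.55 to 7.95 (median 7.82), against 8.93 to 9.41 (median 9.15) in CD-fed F2 males, a difference of -1.37 (SE 0.07, adjusted p = 8.41e-12). HSD-fed F2 females had 8.37 to 9.34 (median 8.88), against 9.61 to 10.05 (median 9.75) in CD-fed F2 females, a difference of -0.97 (SE 0.08, adjusted p = 8.98e-09). In F2 and in F1 males the HSD-fed arrays were all below the CD-fed ones, the opposite of F0, where the same scale gave 2.06 in males and 1.48 in females. Females minus males, the own-diet difference was 1.96 in F1 (SE 0.16, adjusted p = 4.09e-12) and 0.40 in F2 (SE 0.11, adjusted p = 0.00159).

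CG6283 kept its direction. Its normalized log2 signal was 8.97 to 9.35 (median 9.21) in HSD-fed F1 males, against 12.14 to 12.42 (median 12.33) in CD-fed F1 males. HSD-fed F1 females had 7.19 to 7.34 (median 7.28), against 11.12 to 11.82 (median 11.36) in CD-fed F1 females. The gap between the diets was wide in both, at -3.09 in males (SE 0.05, adjusted p = 2.71e-19) and -4.13 in females (SE 0.07, adjusted p = 6.38e-17). HSD-fed F2 males had 9.11 to 9.53 (median 9.22), against 11.99 to 12.47 (median 12.17) in CD-fed F2 males, a difference of -2.95 (SE 0.07, adjusted p = 1.32e-16). HSD-fed F2 females had 7.04 to 7.29 (median 7.20), against 9.75 to 10.89 (median 10.33) in CD-fed F2 females, a difference of -3.14 (SE 0.11, adjusted p = 3.33e-13). In the order of own-diet differences, counted from the most negative, CG6283 was in place 22 of 11137 genes in F1 males, 7 of 10676 in F1 females, 27 of 11155 in F2 males and 11 of 10682 in F2 females. The female difference minus the male one was -1.04 in F1 (SE 0.09, adjusted p = 8.9e-12) and did not pass in F2 (-0.18, adjusted p = 0.215).

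**Figure D4:**
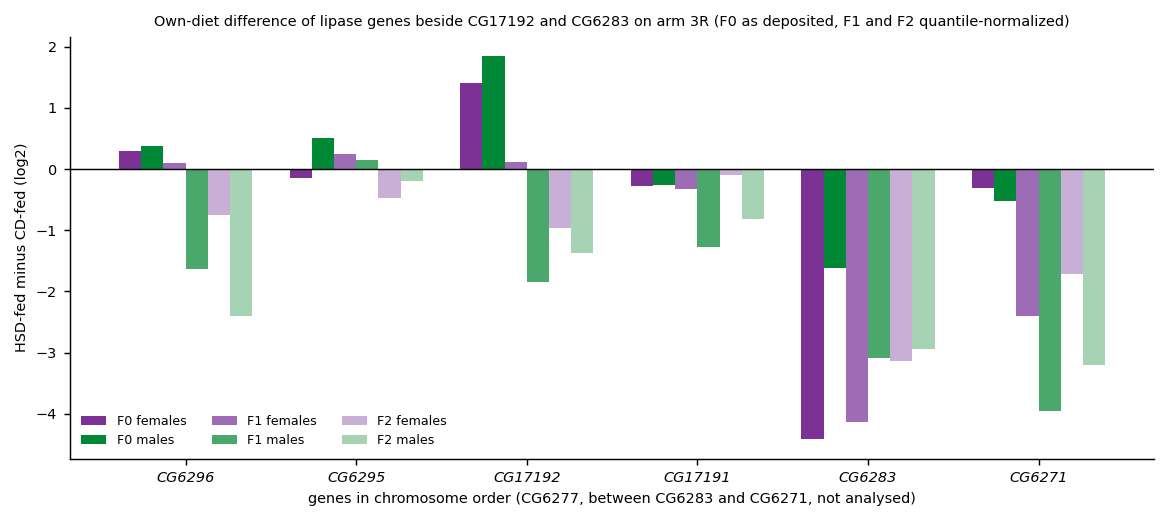
HSD minus CD difference in log2 signal for the 6 measured lipase genes of the run on chromosome arm 3R, in the order of the run, for F0, F1 and F2 of each sex (F0 as deposited, F1 and F2 normalized over all arrays). CG6283 and CG6271 are lower on HSD in every F1 and F2 comparison, CG6295 stays within 0.51 of 0, and CG17192 is higher on HSD in F0 and lower in F1 males and in both sexes of F2.

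The other genes of the run were not part of the choice and were tested in F0 as well. CG6296 rose on HSD in F0 males by 0.38 (adjusted p = 0.00656) and had 0.30 in F0 females (adjusted p = 0.0638). CG6295 rose in F0 males by 0.51 (adjusted p = 0.000165), and CG6271 fell in both sexes, with differences of -0.52 in males (adjusted p = 0.000312) and -0.31 in females (adjusted p = 0.00307). CG17191 was too dim to test in F0. In F1 males, F1 females, F2 males and F2 females the own-diet difference of CG6271 was -3.95, -2.40, -3.20 and -1.71, all called. For CG6296 it was -1.63, 0.10, -2.41 and -0.75, called except in F1 females, the group in which CG17192 was not called either. CG6295 had 0.15, 0.24, -0.19 and -0.47, and CG17191 had -1.27, -0.32, -0.82 and -0.10, the last of which was not called.

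CG17192 was called with ancestry in both sexes of CD-fed F1 flies. CD-fed F1 males had 8.66, 8.66, 8.48 and 8.57 log2 signal with HSD ancestry, against 8.30, 8.10, 8.24 and 8.16 with CD ancestry. CD-fed F1 females had 8.87, 9.49, 8.93 and 9.04 with HSD ancestry, against 8.18, 8.41, 8.25 and 8.13 with CD ancestry. HSD ancestry was the higher group without overlap in both sexes, by 0.39 in males (SE 0.06, adjusted p = 0.00581) and by 0.84 in females (SE 0.12, adjusted p = 0.0101). Without the arrays holding opposite-sex RNA the male value was 0.37 with an adjusted p of 0.0803, while the female call held under all 16 alternatives run. In males the midgut markers summed to 11.99 to 12.15 with HSD ancestry, against 11.92 to 12.03 with CD ancestry, and none of the 4 was called. The part of the midgut was not tested.

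In F2 females the direction was the other one. HSD-fed F2 females had 8.62, 8.86, 8.36 and 8.46 with HSD ancestry, against 9.10, 9.10, 9.44 and 9.08 with CD ancestry, a difference of -0.60 that narrowly missed (SE 0.12, adjusted p = 0.0549). Averaged over both own diets, CG17192 was lower with HSD ancestry in F2 females, with a difference of -0.42 (SE 0.08, adjusted p = 0.00757). It was higher in F1 males by 0.46 (SE 0.07, adjusted p = 0.00943; 1.52% of all genes passed) and in F1 females by 0.48 (SE 0.13, adjusted p = 0.045), the last of which was lost in 16 of 25 alternatives, with any of 12 of the 16 arrays left out among them. Taken by own diet, the CG17192 difference in F1 females was 0.84 in CD-fed flies but 0.12 in HSD-fed flies (adjusted p = 0.702). In HSD-fed F1 males it was 0.53 (adjusted p = 0.173). No lipase was called on average in F2 males, where 0.0627% of all genes were. The ancestry difference in F2 minus that in F1 was -0.65 in CD-fed males (SE 0.10, adjusted p = 0.0011; 2.22% of all genes passed) and -1.08 in CD-fed females (SE 0.15, adjusted p = 0.0012). In CD-fed males the same contrast for bmm was 0.34 (SE 0.07, adjusted p = 0.0154). Without the arrays that held opposite-sex RNA, the male values were -0.63 for CG17192 (adjusted p = 0.0119) and 0.39 for bmm (adjusted p = 0.0329), and the F1 averages of CG17192 were 0.47 in males (adjusted p = 0.0416) and 0.56 in females (adjusted p = 0.0154).

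Neighbours of CG17192 had ancestry calls in CD-fed F1 sets, where CG17192 was called, and in HSD-fed F2 females, where it was not. CG6296 was higher with HSD ancestry in CD-fed F1 females by 0.69 (adjusted p = 0.00311) and lower in HSD-fed F2 females, with a difference of -0.53 (adjusted p = 0.0219). CG6295 was higher in CD-fed F1 males by 0.44 (adjusted p = 0.000968) and in CD-fed F1 females by 0.37 (adjusted p = 0.00784), and lower in HSD-fed F2 females, with a difference of -0.37 (adjusted p = 0.0219). CG17191, tested in 5 sets, and CG6271, tested in 8, had no ancestry call. Since probe sets of the run may share transcripts, these calls are not taken as independent of CG17192.

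CG6283 was called with ancestry in CD-fed F2 flies of both sexes. CD-fed F2 males had 12.54, 12.77, 12.72 and 12.45 log2 signal with HSD ancestry, against 12.15, 12.23, 12.29 and 12.13 with CD ancestry. CD-fed F2 females had 10.40, 10.52, 10.81 and 10.59 with HSD ancestry, against 9.77, 9.82, 10.19 and 10.23 with CD ancestry. The groups did not overlap, and HSD ancestry was higher by 0.42 in males (SE 0.08, adjusted p = 0.0247) and by 0.58 in females (SE 0.12, adjusted p = 0.0383). The male call was lost without HSD ancestry replicate 2 or 3 or CD ancestry replicate 1 (0.37 to 0.41), and the female call without HSD ancestry replicate 1, 3 or 4 or CD ancestry replicate 1 or 3 (0.50 to 0.64). Both values stand beside midgut marker sums that were lower with HSD ancestry in these sets (given above for bmm and mag). Over the 8 sets CG6283 differed with ancestry by -0.01 to 0.58, with 7 of 8 differences above 0.

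Other lipid genes on HSD in F0 were read from 6 lists, with the members left out. The median change over all genes tested was 0.02 in each sex. Of 8 lipid droplet genes, 6 rose and 0 fell in males (median 0.28), and 3 rose and 1 fell in females (median 0.09). The perilipins Lsd-1 and Lsd-2, which coat the droplet on which Brummer works, rose by 1.08 and 0.48 in males and by 1.15 and 0.58 in females, and the droplet protein Jabba rose by 1.17 in males and 0.44 in females. The patatin-domain gene dob, a relative of bmm, rose by 0.21 in males and fell by 0.34 in females.

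Among the other acid lipases, 1 rose and 3 fell of 15 in F0 males (median -0.06), and 0 rose and 5 fell of 9 in F0 females (median -0.21). Lip2 fell by 0.36 in males and 2.11 in females, CG2772 by 0.48 and 0.55, and CG18302 by 0.51 and 0.46, Lip4 fell by 1.19 in females, and CG3635 rose by 0.35 in males. Of the pancreatic-type lipases other than the members, 6 rose and 4 fell of 18 in males (median 0.12), and 2 rose and 3 fell of 20 in females (median 0.01), among them CG10357, which rose by 0.51 in males, and CG4267, which fell by 0.21 in males and rose by 0.44 in females. By own diet, other acid lipases went both ways, with 10 higher and 5 lower of 15 in F1 males, 5 and 4 of 10 in F1 females, 9 and 5 of 15 in F2 males and 4 and 5 of 10 in F2 females. Lip2 was lower on HSD in each, with own-diet differences of -1.17, -2.09, -2.01 and -2.49 in F1 males, F1 females, F2 males and F2 females, and CG2772 had -0.97, -1.26, -0.83 and -0.44.

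Genes listed as lipase regulators changed as well, and their part in the differences of the 6 lipases was not tested. Of 7 measured regulators, 3 rose and 2 fell in F0 males, and 3 rose and 3 fell in F0 females. Those that rose in both sexes were sug (sugarbabe, a sugar-induced zinc finger factor linked to lower expression of gut lipase genes), by 1.61 in males and 1.97 in females, daw (dawdle, a TGF-beta family ligand that acts in sugar sensing), by 1.49 and 1.92, and AkhR (the receptor of adipokinetic hormone, which mobilises stored fat), by 1.06 and 2.07. Akh, the hormone itself, fell by 0.48 and 0.47, and foxo, a transcription factor known to act on bmm, fell by 0.20 and 0.17. Hr96, the nuclear receptor known to act on mag, fell by 0.50 in females. By own diet, 6 of the 7 regulators were higher and 1 lower in F1 males, 5 and 1 in F1 females, 6 and 1 in F2 males and 6 and 1 in F2 females. AkhR was higher on HSD in each, by 1.40, 1.20, 1.48 and 0.95 in F1 males, F1 females, F2 males and F2 females, whereas Akh had -0.44, -0.77, -1.02 and -0.69. Akh was the 1 lower regulator in F1 males, F2 males and F2 females. There foxo and Hr96 were thus called higher on HSD. In F0, as deposited, foxo had been called lower in both sexes, but Hr96 in females only. The F1 and F2 values are normalized over all arrays, and own diet is also batch there.

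Lipoprotein and oxidation genes were mixed in F0. Of 5 lipoprotein transport genes, 2 rose and 0 fell in males (median 0.08), and 2 rose and 1 fell in females (median 0.09). The lipophorin precursor apolpp rose by 0.21 and 0.13, Apoltp by 0.45 in males and the receptor LpR2 by 0.56 in females, while Mtp fell by 0.47 in females. Of 12 fatty acid oxidation genes, 3 rose and 4 fell in males (median 0.02), and 4 rose and 4 fell in females (median -0.00), with Mtpbeta up by 0.24 and 0.40, the carnitine carrier gene colt up by 0.22 and 0.29 and CG9547 down by 1.21 and 0.77.

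With ancestry, few of the listed genes were called. In CD-fed F1 males 4 of the pancreatic-type lipases rose with HSD ancestry and 0 fell (CG6295, CG5162 by 0.37, CG18258 by 0.29 and CG14034 by 0.25). Without the arrays that held opposite-sex RNA, CG6295 remained called (0.44, adjusted p = 0.0217), while CG5162 had 0.34 (adjusted p = 0.0608), CG18258 0.23 (adjusted p = 0.256) and CG14034 0.21 (adjusted p = 0.236). Jabba (0.35), scu (0.25) and Echs1 (0.21) were also called higher in that set. Without those arrays they had 0.24 (adjusted p = 0.133), 0.20 (adjusted p = 0.285) and 0.18 (adjusted p = 0.312). In HSD-fed F2 females 0 of the pancreatic-type lipases rose and 3 fell (CG6296, CG6295 and CG10357, the last by 0.33). In CD-fed F2 males, the set in which bmm and CG6283 were higher with HSD ancestry, sug was lower with a difference of -0.83 (adjusted p = 0.0109), AkhR with -0.47 (adjusted p = 0.032) and Lsd-2 with -0.34 (adjusted p = 0.032), while Lip4 was higher by 0.34 (adjusted p = 0.0468), CG10116 by 0.32 (adjusted p = 0.0445) and the oxidation gene Echs1 by 0.30 (adjusted p = 0.032). In CD-fed F1 females, the set in which mag, Lip3 and CG17192 were higher, sug was higher by 0.60 (adjusted p = 0.0429). The CD-fed F2 females, in which mag was lower and CG6283 higher, had 1 other acid lipase and 1 regulator called lower. Any link between calls of listed genes and of the 6 lipases in a set was not tested. In HSD-fed F1 females, where none of the 6 lipases was called, sug was lower, with a difference of -0.25. Higher there were CG5966 and Lip2 by 0.49 each, Apoltp by 0.22, CG10116 by 0.20 and colt by 0.14. Without the array that held opposite-sex RNA, sug (-0.28, adjusted p = 0.0278) and Apoltp (0.22, adjusted p = 0.0191) remained called, and the others did not. The HSD-fed F1 and F2 males had no call in any of the lists by limma.

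The order of the 20 groups by mean normalized log2 signal is a description, with no test. For Lip3 all 10 CD-fed groups were above all 10 HSD-fed groups, from 8.76 ± 0.12 in CD-fed F1 females of HSD ancestry down to 3.69 ± 0.23 in HSD-fed F2 females of HSD ancestry (SD, n = 4 each). HSD-fed F0 males had 5.23 ± 0.27 and were next to CD-fed F0 males at 6.96 ± 0.15. For CG6283 the highest group was CD-fed F2 males of HSD ancestry at 12.36 ± 0.11 and the lowest HSD-fed F0 females at 6.83 ± 0.22. For CG8093 the order ran from CD-fed F1 males of HSD ancestry at 11.19 ± 0.08 to HSD-fed F0 females at 6.42 ± 0.27, and for bmm from CD-fed F1 males of CD ancestry at 12.27 ± 0.04 to HSD-fed F2 females of CD ancestry at 10.72 ± 0.02. The 2 highest groups for mag were HSD-fed F0 males at 11.57 ± 0.12 and HSD-fed F0 females at 11.51 ± 0.16, and the lowest were CD-fed F0 females at 9.92 ± 0.04 and CD-fed F1 females of CD ancestry at 9.84 ± 0.16. CG17192 ran from HSD-fed F0 females at 10.38 ± 0.45 to HSD-fed F1 males of CD ancestry at 6.33 ± 0.31. Most neighbours in these orders overlapped: of 19 neighbouring pairs, 16 overlapped for bmm, 17 for mag, 16 for Lip3, 15 for CG8093, 17 for CG17192 and 13 for CG6283.

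Patterns over the 20 group means, centred within each sex, share the same arrays and diets and are given as a description. Lip3 and CG6283 followed each other most closely among the members (Pearson r = 0.98), followed by CG8093 and CG6283 (0.92), bmm and Lip3 (0.88) and bmm and CG6283 (0.86). The closest relation of mag and CG17192 was 0.55, and mag ran against bmm and CG8093 (-0.48 each). Over all 11616 genes compared, the nearest to Lip3 were Amyrel (0.99), an amylase relative, Acbp3 (0.98), an acyl-CoA binding protein, and MtnB (0.98), a metallothionein. The nearest to CG6283 were Amyrel, CG10184 and Acbp3 (0.98 each), and the nearest to CG8093 were CG15533, the maltase Mal-A8 and CG34040 (0.98 each). For bmm they were CG8229, the branched-chain aminotransferase Bcat and the glycerol-3-phosphate acyltransferase mino (0.95 each). For CG17192 they were the serine protease genes Jon65Aiv (0.94) and Jon65Aiii (0.93) and the alkaline phosphatase gene Alp10 (0.88), and for mag Npc2d (0.85), CG17032 (0.81) and CG5618 (0.79). By Spearman's rho, 5 of these 18 were again among the nearest 3: Bcat, mino, Jon65Aiv, Jon65Aiii and Alp10.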

How the data were processed

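Total RNA of whole flies was measured on 80 arrays. Values were deposited on a log2 scale, 1 per probe set and array; the submitters' processing notes name RMA and limma, without versions or settings. Of 18952 probe sets, 183 were controls, 13646 had 1 gene symbol, 402 had several and 4721 had none; for each of 11981 genes the probe set with the highest mean was kept (1094 genes had several). No 2 arrays held identical values. Array number, 4 per group, limits the precision.

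Groups were compared with limma 3.58.1 in R 4.3.3 (lmFit, contrasts.fit, eBayes, two-sided, Benjamini-Hochberg over all genes tested, adjusted p under 0.05). A gene was tested where its mean in at least 1 group of the fit reached the 25th percentile over all non-control probe sets. Own diet in F1 and F2 was fitted after quantile normalization over the 80 arrays, with ancestry as a term; other fits used the values as deposited. Averaged ancestry had own diet, which is batch, as a term. Data were handled with pandas 2.3.3 and numpy 2.4.6 in Python 3.11.15 and with the R package data.table, version 1.17.8, and plotted with matplotlib 3.10.9. The fits were tested on simulated data. Named genes were the 6 lipases, up to 6 called genes per list with the largest F0 change (named again for own diet), called list genes in ancestry sets picked after their values were seen, the neighbours on 3R and the 3 nearest patterns per lipase. The lists covered lipid droplet, acid lipase, pancreatic-type lipase, lipoprotein transport, fatty acid oxidation and lipase regulator genes, plus midgut, fat body and sex-limited markers. The members and lists were chosen with earlier results of these data known. The difference between generations was added after seeing the data. Hsl, CG34447, Mcad, Mtpalpha, Etf-QO, Etfb and CG3902 of the lists and the markers Myo31DF, lab, Amy-p, Amy-d and Fas are not analysed here. Alternatives covered normalization, the dim filter, array weights, the prior, a replicate block, 1 fit of all arrays and left-out arrays.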

Additional observations from a re-analysis of the deposited data

Results flagged for a closer look

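In 8 of 120 groups of 4 arrays, 1 array stood apart from the other 3 by Dixon's test (critical value 0.829 for 4); chance gives about 1 in 20, or 6 groups. The lone arrays were the lowest of their group in 7 cases. For bmm this was CD-fed F1 female HSD ancestry replicate 2 (11.76 log2 signal, the nearest array being 11.86). For mag they were HSD-fed F1 male CD ancestry replicate 1 (11.01, nearest 11.16) and HSD-fed F1 female CD ancestry replicate 4 (10.89, nearest 10.99). For CG8093 they were HSD-fed F0 male replicate 3 (9.91, nearest 10.27), CD-fed F1 female CD ancestry replicate 3 (10.31, nearest 10.69) and HSD-fed F1 female CD ancestry replicate 2 (8.50, nearest 8.81). For CG17192 they were HSD-fed F1 male CD ancestry replicate 1 (7.00, nearest 7.47) and, as the highest of its group, HSD-fed F2 female CD ancestry replicate 3 (9.44, nearest 9.10). The HSD-fed F1 male array of CD ancestry, replicate 1, was the lone one for both mag and CG17192.

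The own-diet difference differed between the sexes in F1, females minus males, by 0.18 for bmm, -0.24 for Lip3, -1.57 for CG8093, 1.96 for CG17192 and -1.04 for CG6283. In F2 it differed by -0.21 for bmm, -0.48 for mag, 0.54 for Lip3, -0.89 for CG8093 and 0.40 for CG17192. Each of the 4 combinations of sex and own diet in a generation is a batch of its own, so a batch cannot be told apart from these differences. The ancestry difference differed between HSD-fed and CD-fed F2 males for bmm (-0.42), a call that was lost after quantile normalization. It differed between F2 and F1 for bmm in CD-fed males (0.34), for CG17192 in CD-fed males (-0.65) and CD-fed females (-1.08), and for mag in HSD-fed females (-0.50) and CD-fed females (-1.14).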

How the results depend on the processing

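Calls were recounted under the alternatives listed with the processing. The 65 list calls in F0 became 54 to 69, the 9 ancestry calls 7 to 13, the 22 own-diet calls 22 to 24, the 10 sex contrasts 9 or 10 and the 5 generation contrasts 4 to 7. The 5 averaged ancestry calls became 0 without own diet (batch) as a term and 4 to 6 otherwise. The 1 ancestry contrast between own diets became 4 with the dim filter at the 50th percentile, 4 with array weights, 3 with a trended robust prior, 3 with a replicate block and 0 after quantile normalization. The cause was not tested. Without the arrays holding opposite-sex RNA the F2 male fit kept 1 array in a group, so no count is given for it. With each array left out in turn the counts were 58 to 66 for F0 lists, 7 to 11 for ancestry, 3 to 6 for averaged ancestry (3 without CD-fed F1 female CD ancestry replicate 1), 1 to 2 for the contrast between own diets (2 without any of F1 CD-fed male HSD ancestry replicate 3, F1 CD-fed female HSD ancestry replicate 2, F1 HSD-fed female HSD ancestry replicate 4 and F2 HSD-fed male HSD ancestry replicate 2), 22 to 22 for own diet, 9 to 10 for sexes and 4 to 6 for generations. Among called differences of the lipases the 1 sign that turned was that of the F2 sex contrast for bmm, 0.21 as deposited; among those not called, mag in F2 males was -0.28 as deposited.

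Replicate numbers were not taken to pair arrays: within sets, of 40 same-numbered pairs, 9 had deviations correlated above 0.1 (-0.32 to 0.64), in 0 of 10 sets did all pairs, and 9 correlated best with their own number. Across own diets, sexes and generations of 1 ancestry, 5, 9 and 7 of 32 pairs were above 0.1 (-0.23 to 0.25 over all), and in 0 of 8 comparisons of each kind were all pairs. With the replicate block the counts were 54 F0 list calls, 7 ancestry, 4 averaged, 3 between own diets, 22 own diet, 10 sexes and 4 generations. Signal near the dim limit bounds Lip3 on HSD, and 4 arrays per group bound the rest.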
